A study of Mus musculus with 6 samples.

Results

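The genes described here encode the proteins that build, remodel and clear plasma lipoproteins, read out in livers of wild-type and Mettl3-deficient mice. They are 32 genes given by name (13 apolipoproteins, 5 genes of particle assembly and secretion, 4 of high-density lipoprotein remodelling and cholesterol efflux, 3 lipases and their anchor Gpihbp1, 3 angiopoietin-like genes and 3 receptors) out of 27179 genes counted. All 32 were found in the files by Entrez identifier, and all 32 passed the filter on low counts, so none was left untested. RNA-seq read counts were obtained from 6 C57BL/6 livers, 3 wild type and 3 Mettl3-deficient. Mettl3 is the methyltransferase that places N6-methyladenosine on messenger RNA. The sources used here do not give how Mettl3 was made deficient, nor the age, sex or feeding state of the mice. Litter, day and batch are not named, so a p-value speaks of the spread among these 6 livers alone.

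The liver secretes triglyceride in very-low-density lipoprotein (VLDL), a particle built on apolipoprotein B. The microsomal transfer protein Mttp loads lipid onto it, and coat vesicles carry it from the endoplasmic reticulum. Lipoprotein lipase, anchored on endothelium by Gpihbp1 and restrained by angiopoietin-like proteins, removes the triglyceride, and liver receptors take up the remnants. High-density lipoprotein (HDL) starts as apolipoprotein A-I that accepts cholesterol from the transporter Abca1, is matured by Lcat, and delivers cholesterol to the receptor Scarb1.

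Libraries held 31960205 to 36025772 counts. Levels below are CPM, a gene's counts relative to the size of its library, scaled by TMM, a method that sets the bulk of genes equal between libraries. Fold changes are log2 values of Mettl3-deficient against wild type from edgeR's quasi-likelihood test, and a gene was called, and is said to have risen or fallen, at a Benjamini-Hochberg adjusted p under 0.05 over 14380 genes. Mettl3 itself stood at 13.4, 14.3 and 12.1 CPM in the wild-type libraries and at 5.96, 6.598 and 4.94 CPM in the Mettl3-deficient ones (log2 fold change -1.18, adjusted p = 0.00797). Wild type replicate 1 stood apart from the other wild-type libraries. It carried 6514 counts of Y-linked genes, as did Mettl3-deficient replicates 1 and 2 (4757 and 5036), against 6 to 11 in the other libraries. It lay more than 1.5-fold below both other wild-type libraries for 12 of the 32 genes and above them for 1, so results are also given without it where that changes them.

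Of the 32 genes 6 fell and 4 rose. The genes that fell were Sar1b, Apoc3, Apoh, Apom, Lipc and Pltp, and those that rose were Vldlr, Lpl, Abcg1 and Tm6sf2. The share that fell was 18.8% against 10.5% of all genes tested, and the share that rose was 12.5% against 13.3%. The median log2 fold change was -0.63 over the 32 genes and 0.01 over all genes tested. The 3 Mettl3-deficient libraries lay wholly below the wild-type ones for 14 genes (43.8%, against 21.9% of all genes) and wholly above for 5 (15.6%, against 23.9%).

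Library size alone adds about the same to every gene, so it moves the 32 genes and all genes alike by construction. With library size alone the median of all genes was 0.49 and that of the 32 genes -0.16, a distance of -0.65 as with TMM (-0.65), and 3 of the 32 genes fell and 6 rose, against 4.14% and 33.4% of all genes. Sar1b, Apoc3, Vldlr and Abcg1 kept their calls whichever of the 6 libraries was left out. Without wild type replicate 1, 9 genes fell, with Apoa5, Lcat and Lipg added. When wild type replicate 2 or 3, or replicate 1 of the Mettl3-deficient livers, was left out, 2 genes fell in each fit, where 3.96%, 4.17% and 3.53% of all genes did. Without wild type replicate 2 only Vldlr and Abcg1 rose.

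**Figure D1:**
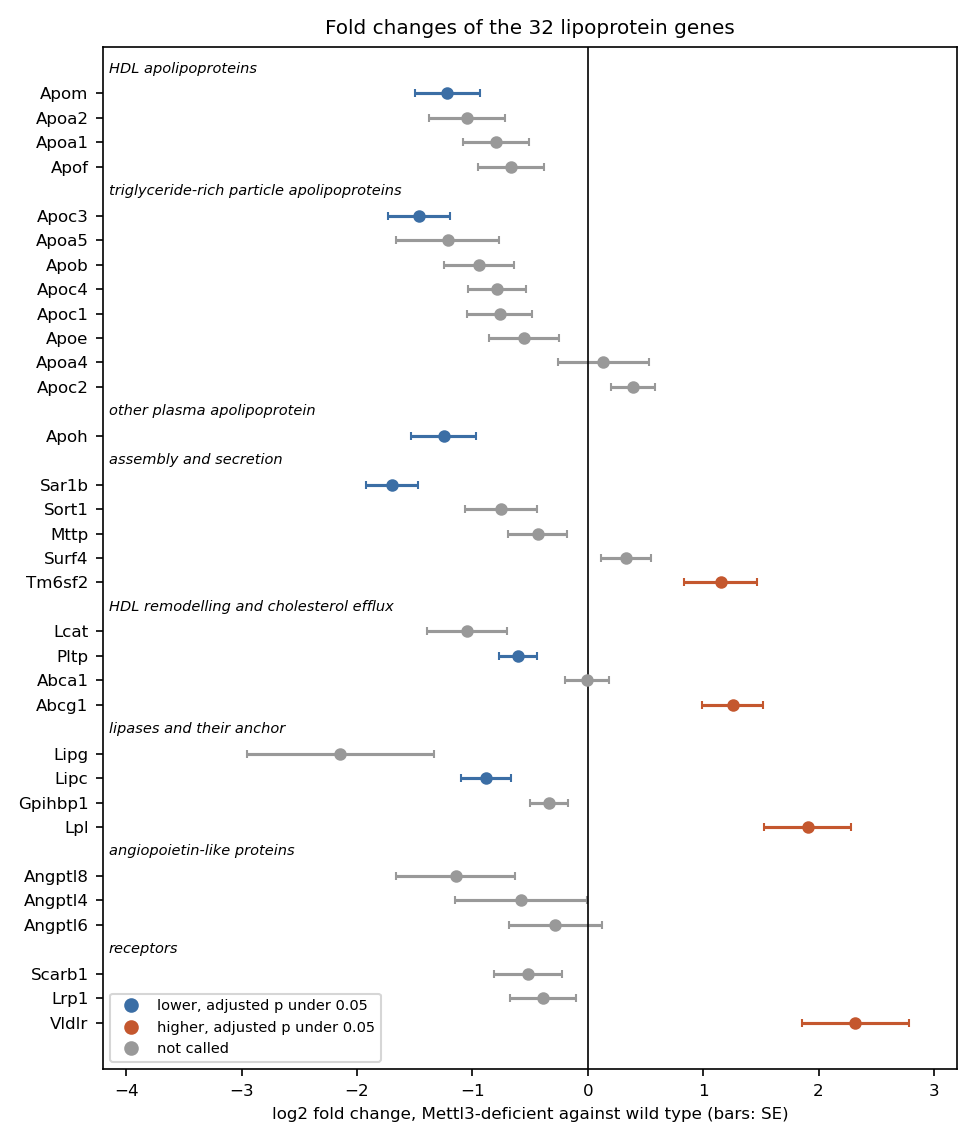
Log2 fold change of each of the 32 genes, Mettl3-deficient against wild type, with its standard error, grouped by role. The 6 genes that fell run from -1.70 (Sar1b) to -0.60 (Pltp) and the 4 that rose from 1.15 (Tm6sf2) to 2.32 (Vldlr), and 22 genes were not called.

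Promoters are shown for 4 of the called genes, as the stretches of genome before annotated start sites. Where the RNAs begin in these livers was not measured, so the start site used by Lipc or Vldlr is not known. The 4 each hold a marked motif. Promoters of the called genes Pltp, with CCAAT, and Apom, with neither motif, are not printed. RefSeq start sites of GRCm38.p6, the same build as the authors' mm10, gave a promoter for 21 of the 32 genes. The 250 bases before the start site are printed 5′ to 3′ along the gene's strand, for Sar1b (chr11:51763413-51763662, plus strand), Apoh (chr11:108395047-108395296, plus strand), Lipc (chr9:70934809-70935058, minus strand, the downstream of its 2 start sites) and Vldlr (chr19:27216770-27217019, plus strand, the downstream of its 2 start sites). Capitals mark AGGTCA, the half-site of nuclear receptors, or CCAAT, the NF-Y box, on either strand.
Sar1b: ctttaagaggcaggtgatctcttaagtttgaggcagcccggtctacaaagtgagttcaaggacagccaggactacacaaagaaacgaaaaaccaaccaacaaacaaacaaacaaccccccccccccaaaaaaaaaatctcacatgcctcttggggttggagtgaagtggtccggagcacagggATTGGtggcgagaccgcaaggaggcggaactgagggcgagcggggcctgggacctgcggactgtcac
Apoh: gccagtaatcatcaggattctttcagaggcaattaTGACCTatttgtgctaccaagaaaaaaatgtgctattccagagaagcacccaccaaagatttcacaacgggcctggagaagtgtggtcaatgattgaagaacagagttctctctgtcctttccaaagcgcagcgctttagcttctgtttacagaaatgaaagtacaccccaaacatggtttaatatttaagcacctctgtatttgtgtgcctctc
Lipc: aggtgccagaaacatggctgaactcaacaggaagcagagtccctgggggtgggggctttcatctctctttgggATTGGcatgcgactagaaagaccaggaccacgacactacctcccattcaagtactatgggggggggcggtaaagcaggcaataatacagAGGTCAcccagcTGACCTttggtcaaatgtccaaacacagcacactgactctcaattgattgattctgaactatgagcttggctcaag
Vldlr: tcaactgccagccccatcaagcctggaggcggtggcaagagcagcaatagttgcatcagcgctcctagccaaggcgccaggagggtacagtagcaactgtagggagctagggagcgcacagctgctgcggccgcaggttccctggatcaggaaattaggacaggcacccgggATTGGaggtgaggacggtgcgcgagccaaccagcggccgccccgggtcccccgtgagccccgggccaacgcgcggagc

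The half-site AGGTCA was found in the promoters (250 bases before to 50 after the start) of 5 of the 21 genes (Apoa2, Apoc2, Apoc4, Apoh and Lipc). It was in 18.1% of all genes with a promoter and in 16.3% of all 32851 promoters of that length. CCAAT was found in 7 of the 21 genes, Sar1b and Vldlr among them, and in 41.1% of all genes and 37.4% of all promoters. In Lipc the half-site occurs at -88 and, reversed, at -76 from the downstream start site, the one printed. The promoter at the upstream start site of Lipc held CCAAT but not AGGTCA. At the upstream start site of Vldlr neither was found. The HNF4 motif CAAAGTCCA was in none of the 21 and in 0.475% of all promoters, and the direct repeat of 2 copies of AGGTCA with 1 base between them, which holds the half-site, was in none and in 0.0396%. Each was searched on both strands, and a match or its lack describes these letters only.

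Of 8 apolipoproteins of triglyceride-rich particles 1 fell, near the 10.5% of all genes. Apoc3, which slows the clearance of triglyceride-rich particles by inhibiting lipolysis and uptake (Entrez 11814, chromosome 9, 46233050 to 46235636, GRCm38), stood at 2706, 3068 and 2872 CPM in wild-type and at 1079, 800.5 and 1266 CPM in Mettl3-deficient livers. Each Mettl3-deficient library held less than any wild-type one. Its log2 fold change was -1.46 ± 0.27 (SE), with an adjusted p of 0.0104, at most 0.0491 in any alternative fit.

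Apob, the structural protein of VLDL, had 7143, 5065 and 5123 CPM in wild-type and 2764, 2404 and 3859 CPM in Mettl3-deficient livers. The groups did not overlap, and the log2 fold change of -0.94 ± 0.30 (SE) missed the threshold (adjusted p = 0.0576). It was called without Mettl3-deficient replicate 3 and with DESeq2. Apoa5, which promotes lipolysis, had 888, 2746 and 2583 CPM in wild-type and 759, 733 and 1190 CPM in Mettl3-deficient livers. Wild type replicate 1 lay inside the Mettl3-deficient range, and the log2 fold change was -1.21 ± 0.45 (adjusted p = 0.0843). Without that library Apoa5 was called as lower.

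Apoe, the ligand of remnant receptors, had 15240, 23310 and 20740 CPM in wild-type and 13530, 11290 and 15600 CPM in Mettl3-deficient livers. The groups overlapped at wild type replicate 1, and the log2 fold change was -0.55 ± 0.30 (adjusted p = 0.21). Apoc1, which hinders remnant uptake, had 3599, 3028 and 2550 CPM against 1853, 1405 and 2150 CPM, with no overlap and an adjusted p of 0.0834. Apoc4, a minor apolipoprotein, had 1079, 888 and 728 CPM against 530.3, 444 and 587 CPM, again with no overlap (adjusted p = 0.0547). DESeq2 called both as lower, and limma-voom called Apoc4.

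Apoc2, the activator of lipoprotein lipase, ran the other way from Apoc1 and Apoc4 without being called. It had 181, 228 and 232 CPM in wild-type and 272, 276 and 292 CPM in Mettl3-deficient livers. The Mettl3-deficient libraries were all higher, with a log2 fold change of 0.39 ± 0.19 (adjusted p = 0.169). It was called as higher with library size alone (adjusted p = 0.00915). Apoa4, which is secreted on triglyceride-rich particles, ranged from 49.9 to 131 CPM in wild-type and from 61.6 to 129 CPM in Mettl3-deficient livers, with a log2 fold change of 0.14 (adjusted p = 0.822) that turned negative without wild type replicate 1 (-0.17). An annotated gene (Gm44805) spans Apoc4 and Apoc2 on their strand, and reads from it cannot be told apart from theirs.

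Of 4 HDL apolipoproteins 1 fell (10.5% of all genes). Apom, the HDL carrier of sphingosine 1-phosphate, stood at 204, 398 and 354 CPM in wild-type and at 146, 148 and 117 CPM in Mettl3-deficient livers (log2 fold change -1.22 ± 0.28, adjusted p = 0.0201). The groups did not overlap. The call was lost with library size alone (adjusted p = 0.0628) and if wild type replicate 2 or 3, or replicate 1 of the Mettl3-deficient livers, was left out (at most 0.0728).

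Apoa1, the main HDL protein, had 11320, 11920 and 11720 CPM in wild-type and 6829, 5151 and 8203 CPM in Mettl3-deficient livers. Wild-type values were close together and all higher, and the log2 fold change was -0.79 ± 0.28 (adjusted p = 0.0789). Apoa2, the second HDL protein, had 9344, 7626 and 6983 CPM against 3964, 2550 and 5058 CPM, with no overlap and a log2 fold change of -1.05 ± 0.33 (adjusted p = 0.053). Apof, which in humans inhibits cholesteryl ester transfer, had 693, 1051 and 1074 CPM against 622, 441 and 712 CPM. Its groups overlapped at wild type replicate 1 (adjusted p = 0.127). DESeq2 called Apoa1, Apoa2 and Apof as lower, and Apoa2 was also called by limma-voom, with a filter at CPM 1 and without Mettl3-deficient replicate 3.

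Apoh, the plasma phospholipid-binding protein beta-2-glycoprotein I whose promoter is printed above, fell. It had 2266, 2622 and 2470 CPM in wild-type and 1010, 769 and 1316 CPM in Mettl3-deficient livers, with no overlap (log2 fold change -1.25 ± 0.28, adjusted p = 0.0182). Its call ended if wild type replicate 2 or 3, or replicate 1 of the Mettl3-deficient livers, was left out (at most 0.0792). Of the 13 apolipoprotein genes together 3 fell and 0 rose (10.5% and 13.3% of all genes). The groups did not overlap for 8 with Mettl3-deficient lower and for 1 with it higher (21.9% and 23.9% of all genes). DESeq2 called 10 of the 13 as lower (15% of all genes). The 13 genes took 4.82%, 5.12% and 4.83% of all counts in the wild-type libraries and 3.89%, 3.33% and 4.53% in the Mettl3-deficient ones.

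**Figure D2:**
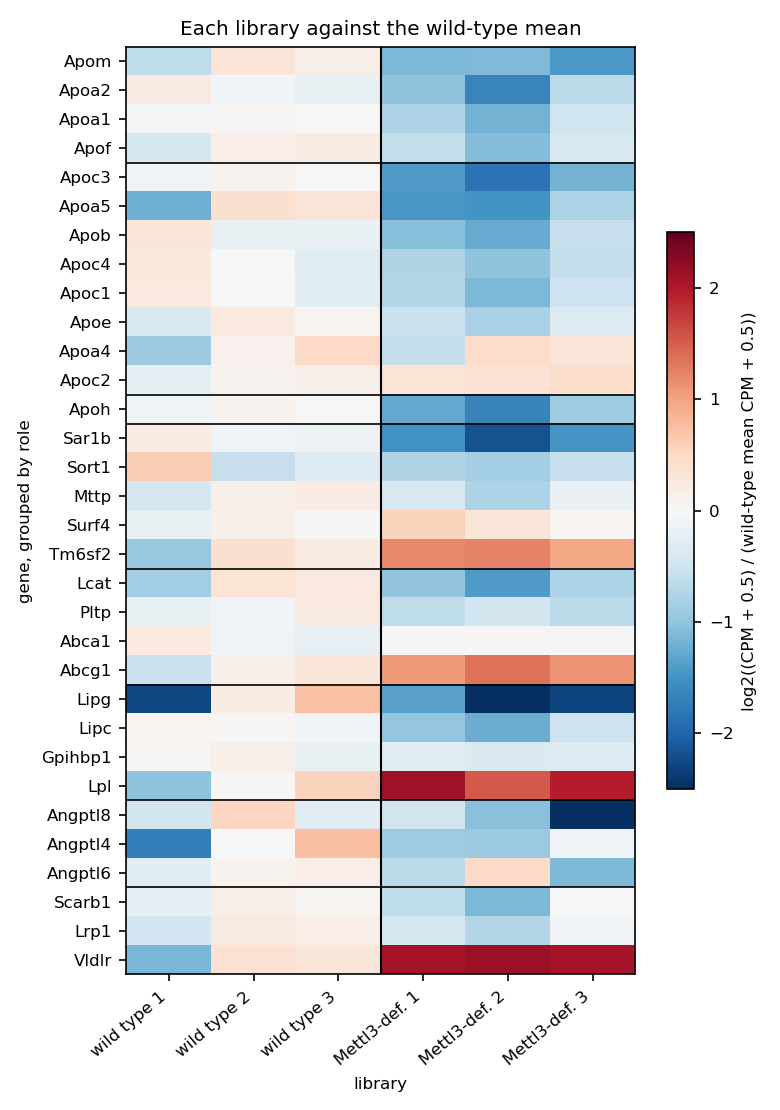
Level of each of the 32 genes (rows, grouped by role) in each of the 6 libraries (columns), as log2 of (CPM + 0.5) over the wild-type mean plus 0.5, with colours ending at 2.5 in either direction. Wild type replicate 1 is bluer than the other wild-type libraries for genes such as Apoa5, Lcat, Lipg and Angptl4, and the Mettl3-deficient columns are darker blue than every wild-type column for Sar1b, Apoc3 and Apoh.

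Of 5 genes of particle assembly and secretion 1 fell and 1 rose (10.5% and 13.3% of all genes). Sar1b, the small GTPase of COPII coat vesicles that is required in humans for chylomicron export and in mice for hepatic lipoprotein secretion (Entrez 66397, chromosome 11, 51763663 to 51791953), stood at 158, 127 and 125 CPM in wild-type and at 47.6, 29.9 and 49.0 CPM in Mettl3-deficient livers. The groups were far apart, with a 3.25-fold fall (log2 fold change -1.70 ± 0.23, adjusted p = 0.00406). It was called in all 16 alternative fits, with an adjusted p of at most 0.0189. Its paralogue Sar1a, chosen after its values were seen, had a mean of 119.8 ± 12.9 CPM in wild-type and 105 ± 13.1 CPM in Mettl3-deficient livers (SD, n = 3), with overlapping groups and a log2 fold change of -0.19 ± 0.17 (adjusted p = 0.446) that was 0.29 with library size alone. The difference between the paralogues was not tested.

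Tm6sf2, a membrane protein that promotes lipid loading of VLDL, rose from 20.6, 52.8 and 46.8 CPM in wild-type to 93.0, 94.7 and 79.2 CPM in Mettl3-deficient livers. All Mettl3-deficient libraries were higher (log2 fold change 1.15 ± 0.32, adjusted p = 0.0361). The call was lost when any library other than wild type replicate 1 was left out (at most 0.108). Surf4, a cargo receptor for lipoproteins in the secretory route, had 208, 260.1 and 239.7 CPM against 352, 292 and 247 CPM, with overlap (log2 fold change 0.33 ± 0.21, adjusted p = 0.283), and was called as higher with library size alone (0.0199). Mttp ranged from 248 to 385 CPM in wild-type and from 196 to 294 CPM in Mettl3-deficient livers (log2 fold change -0.43, adjusted p = 0.246, and 0.04 with library size alone). Sort1, a sorting receptor that binds apolipoprotein B, ranged from 11.1 to 25.8 CPM and from 9.08 to 11.0 CPM, without overlap and without a call (log2 fold change -0.75, adjusted p = 0.116).

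**Figure D3:**
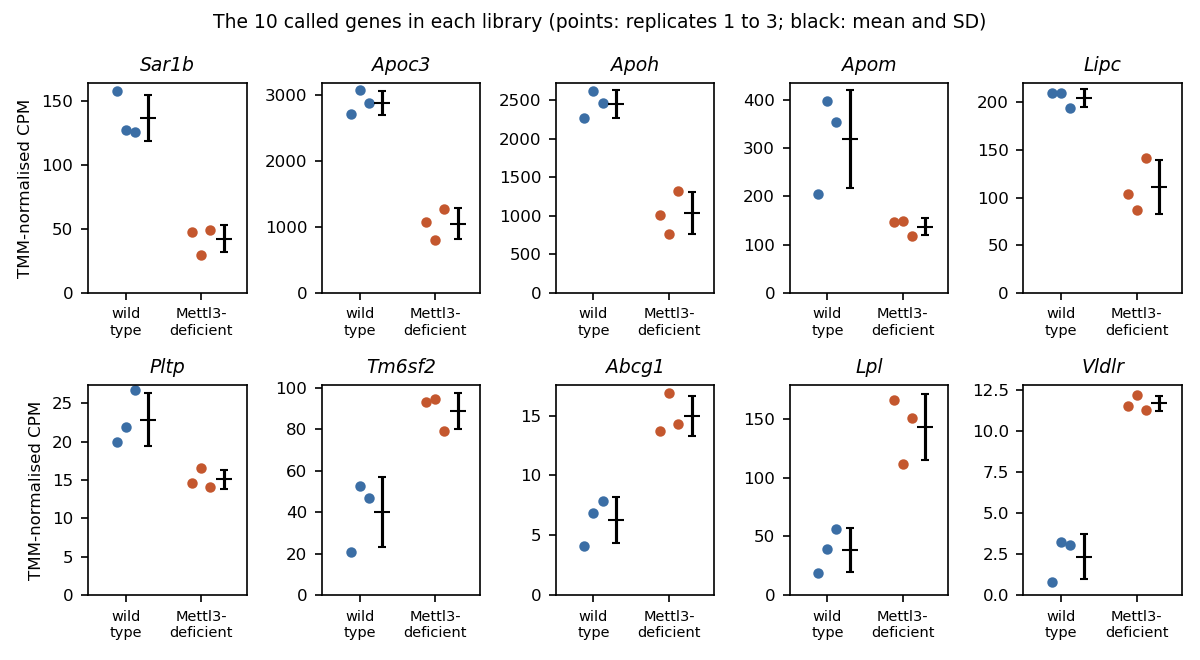
TMM-normalised CPM of the 10 called genes in each of the 3 wild-type (blue) and 3 Mettl3-deficient (orange) libraries, with mean and SD in black and each axis starting at 0. In all 10 genes the groups do not overlap, and wild type replicate 1 is the lowest wild-type point for 8 of them, all but Sar1b and Lipc.

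Of 4 genes of cholesterol efflux and HDL remodelling 1 fell and 1 rose (10.5% and 13.3% of all genes). Abcg1, which exports cholesterol to HDL and is high in macrophages, rose from 4.12, 6.86 and 7.84 CPM to 13.7, 16.9 and 14.3 CPM. The groups did not overlap (log2 fold change 1.26 ± 0.26, adjusted p = 0.0152), and the call held in all 16 alternative fits. Pltp, the phospholipid transfer protein, fell from 20, 21.9 and 26.7 CPM to 14.6, 16.5 and 14.1 CPM (log2 fold change -0.60 ± 0.17, adjusted p = 0.0354). The call was lost with library size alone (-0.12, adjusted p = 0.634), with the Y-linked covariate (0.0595), and when any library other than wild type replicate 1 was left out. Pltp overlaps Ctsa on the opposite strand, and the sources used here do not say whether the counting used strand.

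Lcat, the plasma enzyme that esterifies HDL cholesterol, had 253, 586 and 553 CPM in wild-type and 233, 173 and 269 CPM in Mettl3-deficient livers. Wild type replicate 1 lay within the Mettl3-deficient range (log2 fold change -1.05 ± 0.35, adjusted p = 0.0638), and Lcat was called as lower without it and with DESeq2. Abca1, which starts HDL formation, ranged from 166 to 228 CPM in wild-type and from 189 to 195 CPM in Mettl3-deficient livers. Its log2 fold change was -0.0069 ± 0.19 (SE, adjusted p = 0.983) and took the other sign in 8 alternative fits, up to 0.46 with library size alone.

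Among the lipases, Lpl rose and Lipc fell (13.3% and 10.5% of all genes). Lpl, lipoprotein lipase, which hepatocytes of the adult liver make little of (Entrez 16956, chromosome 8, 68880555 to 68906932), stood at 18.9, 39.1 and 56.7 CPM in wild-type and at 167, 112 and 151 CPM in Mettl3-deficient livers. Every Mettl3-deficient library was higher, 3.75-fold by the fit (log2 fold change 1.91 ± 0.38, adjusted p = 0.0133). The call was lost by a small margin without wild type replicate 2 (0.0512). Lipc, hepatic lipase, which the liver secretes and whose promoter is printed above, had 210.4, 209.5 and 194 CPM against 104, 86.9 and 142 CPM. The groups did not overlap (log2 fold change -0.88 ± 0.22, adjusted p = 0.0255), and the call was lost with library size alone (0.127) and in 4 of the 6 fits that each lacked a library, all but those lacking wild type replicate 1 and Mettl3-deficient replicate 3.

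Lipg, endothelial lipase, which acts on HDL phospholipid, had 4.08, 24.8 and 36.6 CPM in wild-type and 8.22, 2.52 and 4.08 CPM in Mettl3-deficient livers. Wild type replicate 1 was as low as the Mettl3-deficient livers, and the log2 fold change of -2.14 ± 0.81 was not called (adjusted p = 0.1). It was called as lower without that library and with DESeq2. Among libraries with Y-linked counts the log2 ratio was 0.36, and among those without it was -2.77. Gpihbp1, the endothelial anchor of Lpl, ranged from 12.9 to 16.4 CPM and from 11.3 to 12.2 CPM (log2 fold change -0.33, adjusted p = 0.169, and 0.14 with library size alone).

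The angiopoietin-like genes Angptl4, Angptl6 and Angptl8 were not called. Angptl4, an inhibitor of Lpl induced by fasting, ranged from 24.4 to 137 CPM in wild-type and from 41.9 to 76.2 CPM in Mettl3-deficient livers, and its log2 fold change of -0.58 (adjusted p = 0.485) turned to 0.14 with the Y-linked covariate. Angptl8, a feeding-induced gene that takes part in the inhibition of Lpl, ranged from 127 to 252 CPM and from 28.7 to 123 CPM. Its groups did not overlap (log2 fold change -1.15 ± 0.51, adjusted p = 0.142). Angptl8 lies within the span of Dock6 on the other strand. Angptl6 ranged from 13.4 to 18.4 CPM and from 7.22 to 23.1 CPM (log2 fold change -0.28, adjusted p = 0.634), and its value was 0.23 with library size alone.

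Of the 3 receptors Vldlr rose (13.3% of all genes). The VLDL receptor, which binds apolipoprotein E on triglyceride-rich particles and is low in normal liver (Entrez 22359, chromosome 19, 27216480 to 27254231), stood at 0.781, 3.22 and 3.03 CPM in wild-type and at 11.6, 12.2 and 11.3 CPM in Mettl3-deficient livers. Each Mettl3-deficient library was over every wild-type one, 4.99-fold by the fit (log2 fold change 2.32 ± 0.46, adjusted p = 0.0133, at most 0.0452 in any alternative fit). Scarb1 had 168, 221 and 211 CPM in wild-type and 128, 91.5 and 199.6 CPM in Mettl3-deficient livers, with overlap through Mettl3-deficient replicate 3 (log2 fold change -0.51 ± 0.29, adjusted p = 0.229), and was called as lower without that library. Lrp1, the remnant receptor, ranged from 495 to 808 CPM and from 417 to 656 CPM (log2 fold change -0.39, adjusted p = 0.351, and 0.09 with library size alone).

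The groups of the 10 called genes do not overlap, so any split of the libraries gives them the same direction and only sizes can differ. Of the 22 others, 17 had the same direction in libraries with and without Y-linked counts. For those of the 22 without overlap this too was fixed in advance. With Y-linked counts (wild type replicate 1 against Mettl3-deficient replicates 1 and 2) the log2 ratio of means was -2.01 for Sar1b, -1.53 for Apoc3, 2.85 for Lpl and 3.28 for Vldlr. Without them (wild type replicates 2 and 3 against Mettl3-deficient replicate 3) it was -1.36, -1.23, 1.65 and 1.71 in the same order. The sizes differed more for Apom (-0.47 with and -1.68 without Y-linked counts) and Tm6sf2 (2.16 and 0.66). They were -0.35 and -0.77 for Pltp, -1.14 and -0.50 for Lipc, -1.35 and -0.95 for Apoh, and 1.77 and 0.92 for Abcg1. These ratios, added after seeing the data, use 1 library on one side and have no test. With Y-linked counts as a covariate in edgeR the same genes were called other than Pltp.

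The cell makeup of the samples was measured only through marker genes. In whole liver, fewer cells of a type and less RNA per cell cannot be told apart. Each count of markers below stands beside 10.5% of all genes tested that fell and 13.3% that rose. Of 10 hepatocyte markers 2 fell and 0 rose (Alb and Fgb), and their summed level was 150800 to 207500 CPM in wild-type and 78100 to 105000 CPM in Mettl3-deficient livers. Alb carried that separation. Without it, a sum added after seeing the data, the other 9 markers came to 42200, 68490 and 66260 CPM in wild-type and 45930, 46040 and 51700 CPM in Mettl3-deficient livers, with wild type replicate 1 the lowest of all. Trf and Ahsg had the highest levels of those 9. None of the 9 but Fgb was called. Ttr (log2 fold change -0.84), Fga (-0.875), Ass1 (-1.08) and Tat (-1.12) were lower without overlap. Trf (0.16), Ahsg (-0.20), Serpinc1 (-0.31) and Cps1 (-0.59) overlapped between groups. The median log2 fold change of the 10 markers was -0.86, against 0.01 for all genes tested. The part of these markers in the lower levels of Apoc3, Apoh, Apom and Lipc was not tested. Of 14 macrophage markers 4 rose and 0 fell (Cd68, Lyz2, Itgam and Gpnmb), with a summed level of 230.0 to 609 CPM and 652 to 920.5 CPM. Without Spp1, which is also on the cholangiocyte list, the macrophage groups overlapped, with 171, 446 and 510.4 CPM against 532, 869 and 499 CPM. Of 8 tested cholangiocyte markers 2 rose and 0 fell, Tspan8 by 3.49 and Sox9 by 1.33 on the log2 scale. The part of these markers in the results for Abcg1, Lpl and Vldlr was not tested. For the 12 endothelial markers, which bear on Gpihbp1 and Lipg, 1 (Lyve1) fell and 0 rose, and the sums were 231 to 354 and 239.6 to 273 CPM. The adipocyte markers Adipoq, Plin1, Lep, Retn and Ucp1, of a list of 7, had 0 counts in every library. Of the other two, Cfd had 0 to 10 counts a library, and Adrb3 had 197 to 664 counts and was not called (log2 fold change -0.38, adjusted p = 0.677).

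The 2 apolipoprotein gene clusters are shown by position. On chromosome 9 (46228630 to 46271921, GRCm38) the order is Apoa1, Apoc3, Apoa4 and Apoa5 over 43.3 kb. The log2 fold changes in that order were -0.79, -1.46, 0.14 and -1.21, so that Apoa4 lay between genes with negative values. On chromosome 7 (19671579 to 19701310) the order is Apoc2, Apoc4, Apoc1 and Apoe over 29.7 kb, with 0.39, -0.79, -0.76 and -0.55. Apoc2 and Apoc4 are neighbours with values of opposite sign. Of these 8 genes 1, Apoc3, was called (23.8% of all genes), and differences between neighbours were not tested.

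**Figure D4:**
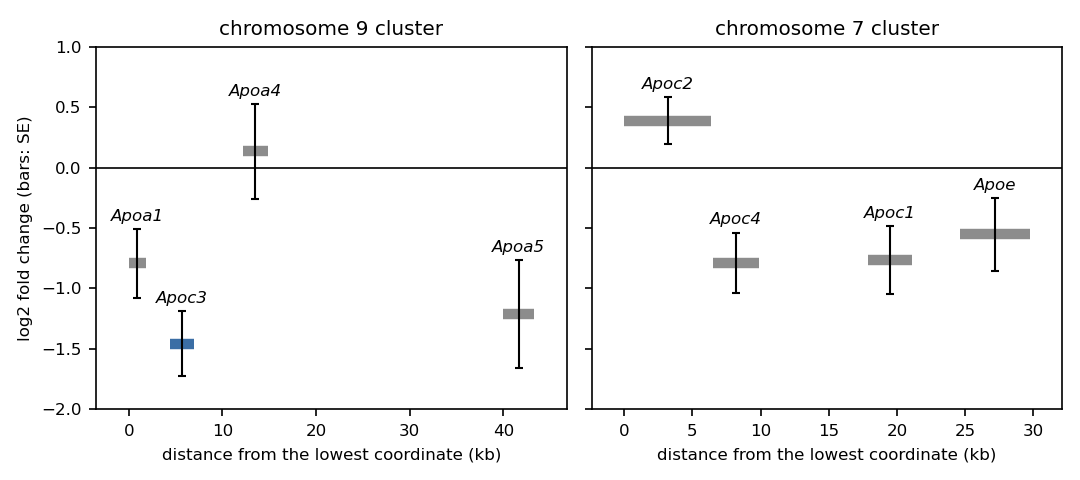
Log2 fold change of the 4 genes of each apolipoprotein cluster against their position, as distance from the cluster's lowest coordinate in kb, with each gene drawn to its length and bars for the SE. Apoc3 (blue, -1.46) is the called gene, and Apoa4 (0.14) and Apoc2 (0.39) lie above 0.

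Between genes, levels were compared per length, as TPM, the counts of a gene over its exon length (GENCODE), scaled to the same sum in each library. In wild-type livers Apoa2 was highest with 33140 ± 4738 TPM (SD, n = 3). Apoa1 (21030 ± 692 TPM) and Apoe (20630 ± 4293 TPM) followed and did not differ beyond their spread, and with the longest transcript as length Apoe stood above Apoa1 (25280 and 20290 TPM). Apoc1 (9159 ± 1459 TPM), Apoc3 (6341 ± 385 TPM) and Apoh (3432 ± 250 TPM) came next. Apob had 924 ± 184 TPM, and Sar1b 243 ± 30.4 TPM. The 3 lowest were Sort1 (4.92 ± 2.30 TPM), Abcg1 (1.92 ± 0.612 TPM) and Vldlr (0.52 ± 0.302 TPM). Lpl had 8.18 ± 4.17 TPM, and 16.8 TPM by its longest transcript.

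Ranks in TPM among the 32 genes were also taken within the Mettl3-deficient livers. Sar1b was at rank 20, and at rank 15 in wild type. Tm6sf2 was at rank 18 (23 in wild type) and Lpl at rank 25 (29 in wild type). Vldlr had 4.02 ± 0.467 TPM and was second lowest. TPM is not scaled by TMM, so differences between groups in TPM need not match the fold changes of the fit. These ranks are a description of each group, with no test between groups.

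**Figure D5:**
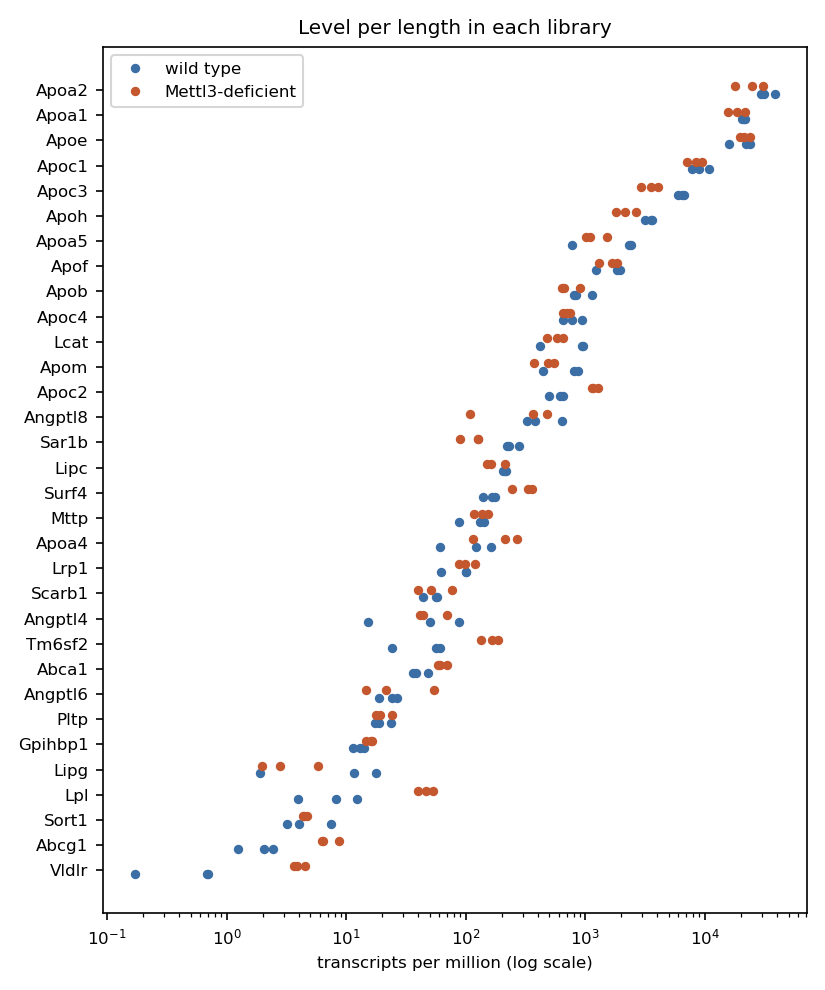
Level per length of the 32 genes in each of the 6 libraries, in TPM on a log axis, ordered by the wild-type mean from Apoa2 at the top (33140 TPM) to Vldlr at the bottom (0.52 TPM). Blue points are wild-type and orange points Mettl3-deficient libraries. TPM is not scaled by TMM, so distances between the colours need not match the fold changes of the fit.

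Further genes of the pathway were counted from lists chosen alongside the 32 genes. Of 34 tested genes of VLDL assembly and the secretory route 7 fell and 1 rose (23.5% called, against 23.8% of all genes). By direction, 10.5% of all genes fell and 13.3% rose. Mia2, which helps load large cargo into COPII vesicles, fell from 38.9 ± 5.36 to 18.9 ± 2.57 CPM (SD, n = 3; adjusted p = 0.00772). The COPII coat gene Sec24a fell from 129 ± 14.2 to 63.0 ± 11.4 CPM (0.01), the hydrolase gene Ces1d from 1212 ± 466 to 177 ± 77.8 CPM (0.00798) and Dgat2, which makes triglyceride, from 738 ± 239.7 to 322 ± 55.8 CPM (0.0292, lost with library size alone and without 1 of 4 libraries, at most 0.114). The apolipoprotein B mRNA editing genes were not called, Apobec1 with a log2 fold change of 0.38 (adjusted p = 0.313) and its cofactor A1cf with -0.69 (0.0746).

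Receptors and lipase partners outside the 32 genes were counted in the same way. Of 19 tested genes of LDL and remnant clearance 1 fell and 1 rose (10.5% called, against 23.8% of all genes). Sdc4, a heparan sulfate proteoglycan, fell from 454 ± 98.9 to 154 ± 66.2 CPM (SD, n = 3; adjusted p = 0.0171, lost in 3 of the 6 fits that left out a library, at most 0.0732) and Sorl1, a sorting receptor, rose from 1.36 ± 0.451 to 4.90 ± 0.906 CPM (0.0102). Of 14 tested lipase and angiopoietin-like partners 2 were called (14.3%, against 23.8% of all genes). Glmp, a lysosomal membrane protein, rose 1.87-fold (adjusted p = 0.0174, and 0.0503 without Mettl3-deficient replicate 1).

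Of 26 tested HDL-associated and further apolipoprotein genes 5 fell and 2 rose (26.9% called). Of all genes 10.5% fell and 13.3% rose (23.8% called). Saa4, an HDL apolipoprotein of the serum amyloid family, fell from 401 ± 118 to 34.1 ± 18.8 CPM (SD, n = 3; adjusted p = 0.00384), and Abcg8, a sterol exporter, from 96.3 ± 17.2 to 41.9 ± 13.7 CPM (0.0194, lost in 3 of the 6 fits that left out a library, at most 0.0654). Rbp4 fell by 1.39 on the log2 scale, a call that ended in 2 of the 6 fits with a library left out (wild type replicate 2, Mettl3-deficient replicate 1, at most 0.0558), and Cd36, a receptor for fatty acids and lipoproteins, rose by 3.21.

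Of 35 genes listed as regulators of these genes 15 fell and 1 rose (45.7% called), against 10.5% and 13.3% of all genes. Not all of them are transcription regulators: Scap, Insig1 and Insig2 control the processing of the Srebf1 protein, and they are among those that fell. Hnf4a, an activator of many apolipoprotein genes, fell from 593, 1023 and 954 CPM to 383, 326 and 437 CPM (log2 fold change -1.17 ± 0.28, adjusted p = 0.0232). The call was lost with library size alone, and also in the same 4 fits with a library left out as Lipc. Mlxipl and Srebf1, regulators of lipogenesis, fell by 1.67 and 1.91 on the log2 scale and Onecut2 by 1.24, while Pparg rose from 5.14 ± 0.863 to 15.1 ± 4.24 CPM (SD, n = 3; adjusted p = 0.00762). Nr1h3, the oxysterol receptor that activates Abca1 and Abcg1, fell from 138 ± 13.2 to 94.3 ± 5.55 CPM (0.0406), a call lost in 8 of the 16 alternative fits, and Creb3l3, an activator of Apoa4, Apoc2 and Apoa5, had a log2 fold change of -0.39 (adjusted p = 0.382). Without wild type replicate 2 or 3 the count of regulators that fell was 3 and 5 (3.96% and 4.17% of all genes). It was 5 and 4 when Mettl3-deficient replicate 1 or replicate 2 was left out (3.53% and 5.07% of all genes). With library size alone it was 6 (4.14% of all genes).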

How the data were processed

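Total RNA of 6 livers was depleted of ribosomal RNA and made into directional libraries, per the labels' protocols. The files hold raw counts by Entrez gene, which the authors made with HISAT2 and featureCounts on mm10, per the submitters' processing notes. Their versions, annotation and strand setting were not stated. Symbols, coordinates and promoters came from RefSeq GRCm38.p6 (25275 of 27179 identifiers matched), and exon lengths and overlaps from GENCODE M21 (24390 genes, at least 92.4% of counts). Of the 32 genes 16 overlap another GENCODE gene, 12 of them one on the opposite strand.

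The test was edgeR 4.0.16 in R 4.3.3, with TMM factors, filterByExpr (minimum count 10, minimum total 15), a robust two-sided quasi-likelihood F test on group alone, and Benjamini-Hochberg adjustment over 14380 genes. Each adjusted p is from it unless another tool is named. SEs were derived from the fold change and F statistic. Depth was 31960205 to 36025772 counts, and replicates differed beyond sampling noise (chi-square per degree of freedom 17.1 or more). Groups came from the sample titles. Alternatives were RLE and upper-quartile factors, library size alone, DESeq2 1.42.0, limma-voom (limma 3.58.1), no filter, a filter of CPM 1 in 3 libraries, a replicate block, scaling without the 20 most abundant genes, a covariate for libraries with over 100 Y-linked counts, and each library left out in turn. Ratios within libraries with or without Y-linked counts were added after seeing the data.

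All 32 genes are named, with every library's value for those called, those whose call an alternative made or ended, and the 6 highest per length in wild type. Up to 4 called genes by p are named per pathway list, with a few chosen regulators and partners, some of which are not reported here. The genes and lists were chosen with earlier results of these data known.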

Additional observations from a re-analysis of the deposited data

How the results depend on the processing

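Of the 32 genes 6 fell and 4 rose. The number that fell was 3 with library size alone and 15 with DESeq2, and ran from 2 to 9 when 1 library was left out, where 4.14%, 15% and 3.53% to 10.7% of all genes fell. The number that rose ran from 2 to 4 there. The median log2 fold change of the 32 genes, -0.63, was -0.16 with library size alone and ran from -0.83 to -0.54 when 1 library was left out. The cause was not tested, other than that leaving out a library leaves fewer samples. RLE or upper-quartile factors, scaling without the 20 most abundant genes, and no filter each gave 6 and 4. With the replicate block 5 fell (Pltp was lost, adjusted p = 0.0651) and 4 rose, and over all genes 1155 fell and 1528 rose against 1514 and 1906. Libraries with the same number shared no more than that: the correlations of their deviations were 0.083, -0.014 and 0.058.

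Uncalled genes changed sign. Abca1 was 0.46 with library size alone, 0.023 with upper-quartile factors, 0.0067 with limma-voom, 0.0063 without a filter, 0.0065 with the replicate block, and from -0.10 to 0.14 when 1 library was left out. Library size alone adds about the same to every gene (median of all genes 0.49 against 0.01), so values just below 0 turn by construction: Mttp was 0.038, Lrp1 0.086, Angptl6 0.23, Gpihbp1 0.14, Creb3l3 0.066 and Sar1a 0.29. Angptl4 was 0.14 with Y-linked counts as covariate. When 1 library was left out, Angptl4 ran from -1.01 to 0.030, Apoa4 from -0.17 to 0.45 (-0.063 without Mettl3-deficient replicate 2) and Angptl6 from -0.91 to 0.019. With 3 libraries a group, and 22 counts of Vldlr in wild type replicate 1, the precision of single genes is limited.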
